A study of Mus musculus with 6 samples.

Results

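Fibrinogen is the soluble plasma protein that thrombin converts into fibrin, the mesh of a blood clot. Its Aα, Bβ and γ chains are encoded by Fga, Fgb and Fgg, which neighbour each other on chromosome 3 of the mouse, and hepatocytes assemble the chains and secrete the protein. The cluster is a textbook case of liver-restricted expression, and its genes are induced together in the acute phase response through interleukin-6. Here uncapped forms of these messages were described by the 5′ ends of RNA recovered from liver, kidney, lung, spleen, brain and ovary.

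Parallel analysis of RNA ends (PARE) ligates an adaptor to 5′-monophosphate ends of polyadenylated RNA and reads about 20 nt of each, so a tag marks where a 5′-monophosphate RNA that still reached the poly(A) tail began. The tissues were whole organs of adult mice of BALB-c genetic background, with 1 library per tissue and no replicate, so no test between tissues was made and all intervals are exact 95% intervals for counting error only. PCR reads are not independent molecules. All tags on either strand whose 5′ end lay in positions 82800001 to 82860000 of chromosome 3 (mouse build mm9) were taken, a rule that used no measured level. They numbered 1092 of the 935685 listed tags of the series, and 1083 of the 839877 tags listed at a single location, which were the ones analysed.

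Unique tags per library numbered 78952 in liver, 162270 in kidney, 493121 in lung, 42939 in spleen, 33382 in brain and 29213 in ovary. Levels are tags per 1000000 of these (CPM). A count of 0 allowed up to 38.0 CPM in liver, 18.5 in kidney, 6.08 in lung, 69.9 in spleen, 89.9 in brain and 102.7 in ovary. Among marker genes, Alb (albumin) was highest in liver at 115716 CPM, against 6754 in spleen. Kap, a protein of the kidney tubule, was highest in kidney at 53941 CPM (8753 tags), against 4662 CPM in lung (2299 tags), 722 in spleen, 317 in liver, 308 in ovary and 89.9 in brain. Gpx3, the plasma glutathione peroxidase made in kidney, was located over only 165 nt and had 26 kidney tags, 5 lung tags and none elsewhere. The labels of lung, spleen, brain and ovary were not checked, since their markers were not analysed here. In whole organs, fewer cells of a type and less RNA per cell cannot be told apart.

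The 1083 tags fell into 3 blocks of ends separated by more than 3000 nt. From low to high coordinates they were a plus-strand block (82812075 to 82818958, 208 tags), a second plus-strand block (82830122 to 82839972, 461 tags) and a minus-strand block (82844089 to 82850741, 414 tags). The mouse gene table (RefSeq, GRCm38.p6) orders the genes as Fgg, Fga and Fgb, and its promoter table places Fgg and Fga on the plus strand and Fgb on the minus strand, so the blocks were named in that order. The same table lists the noncoding gene Gm40075 between Fga and Fgb. The blocks were built from all ends in the 60 kb searched, so no tag could lie outside them. None of the 6 libraries had a tag on the opposite strand within the 3 spans, against 856 liver tags on the sense strand. The limit of 3 counts is 0.350% of that sense level in liver. Exons, introns and untranslated regions were not assigned, since no annotation of mm9 was used.

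The ends that carried most tags in liver are shown first, since the results turn on where they lie. Each line gives the gene, the position of the 5′ end on chromosome 3 (mm9) and the most frequent tag there, 5′ to 3′ as RNA strand in DNA letters. The capital marks the base that carried the monophosphate.
Fga plus strand 82836117: Ttcccaaatgcctaacagtgc
Fga plus strand 82836100: Tgtgtctatttctgtaattcc
Fga plus strand 82836165: Ataaatgaacaaattctgcc
Fga plus strand 82836064: Tagactgtacgttccttggg
Fga plus strand 82836093: Ttgaccatgtgtctatttct
Fgb minus strand 82846250: Tacattatatccactaaagct
Fgb minus strand 82846209: Tctcttttggaacaatatag
Fgb minus strand 82846200: Gaacaatataggataaagac
Fgb minus strand 82846238: Actaaagctcaaaacaatgg
Fgb minus strand 82846221: Tggttgagtgtgtctctttt
Fgg plus strand 82816841: Tgcagttcagtacctgggac
Fgg plus strand 82818835: Tttcctatgggacaatggac
Fgg plus strand 82818812: Tccaagcagagaactatact
Fgg plus strand 82818836: Ttcctatgggacaatggactt
Fgg plus strand 82818845: Gacaatggactttcaggacct

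The 3 genes were highest in liver, where they held 1.08% of all tags (interval 1.01 to 1.16). Fga had 363 liver tags, 48 kidney tags, 42 lung tags, 7 spleen tags, 1 brain tag and no ovary tag. Its level was 4598 CPM in liver (interval 4137 to 5096), against 295.8 in kidney, 163 in spleen, 85.2 in lung and 30.0 in brain. Liver thus stood far above every other library for the Aα chain, 15.5-fold over kidney (interval 11.5 to 21.5), the second highest, and 54.0-fold over lung (39.1 to 76.2).

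Fgb, whose product is the Bβ chain, had 329 liver tags, 40 kidney tags, 39 lung tags, 6 spleen tags and none in brain or ovary. Its liver level was 4167 CPM (interval 3729 to 4643), against 246.5 in kidney, 139.7 in spleen and 79.1 in lung. The ratio of liver to kidney was 16.9 (interval 12.2 to 24.1) and that of liver to lung 52.7 (37.7 to 75.4), close to those of Fga. With each distinct end counted once, the ratio of liver to kidney for Fgb was 8.71. Fgg, whose γ chain carries the sites that platelets bind, had 164 liver tags, 25 kidney tags, 17 lung tags, 2 spleen tags and none in brain or ovary. Its liver level was 2077 CPM (interval 1771 to 2421), against 154.1 in kidney, 46.6 in spleen and 34.5 in lung. The ratio of liver to kidney was 13.5 (interval 8.82 to 21.4), and that of liver to lung was 60.3 (36.5 to 105.9). Over spleen, liver was 28.2-fold higher for Fga (interval 13.5 to 70.6), 29.8-fold for Fgb (13.6 to 81.9) and 44.6-fold for Fgg (12.2 to 371.3). The liver intervals of all 3 genes overlap no interval of another library, and the 3 ratios to kidney lie within each other's intervals.

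**Figure D1:**
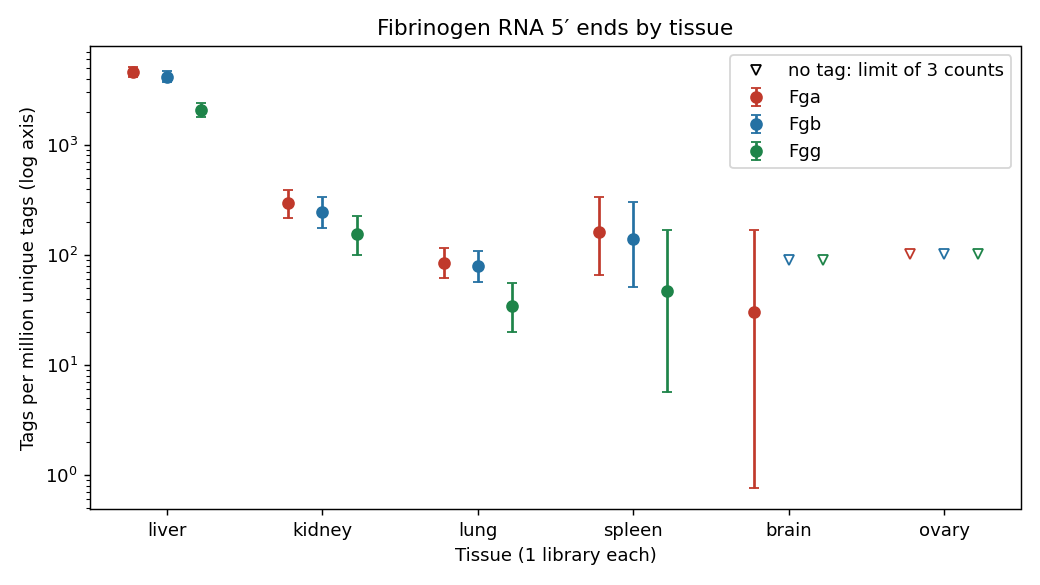
Level of 5′ ends of Fga, Fgb and Fgg in each library, in tags per 1000000 unique tags on a log axis, with exact Poisson 95% intervals; open triangles mark the level that a count of 0 allows. The liver points, 4598, 4167 and 2077 CPM, lie above the intervals of all other libraries.

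Below liver, the order of the libraries was less certain. For the 3 genes together, kidney had 696.4 CPM (interval 573.9 to 837.2), spleen 349.3 (195.5 to 576.2) and lung 198.7 (161.3 to 242.2). Kidney exceeded lung 3.50-fold (interval 2.65 to 4.64) and spleen 1.99-fold (1.16 to 3.68), beyond counting error. Spleen and lung were not separated (ratio 1.76, interval 0.948 to 3.04). The brain level rests on 1 tag. Ovary had no tag, and liver was 105.6-fold above the limit of 3 counts there (102.7 CPM). The exact interval of the ratio of liver to ovary begins lower, at 85.7. Taken gene by gene, the kidney to spleen ratio was not separated from 1 for Fga (1.81, interval 0.816 to 4.75), Fgb (1.76, 0.743 to 5.09) or Fgg (3.31, 0.825 to 28.8). These calls depend on the scaling: with a trimmed mean of M values over 2 kb windows, the ratios were 2.63 for Fga (interval 1.18 to 6.90), 2.56 for Fgb (1.08 to 7.39) and 4.80 for Fgg (1.2 to 41.8), all above 1. The same scaling turned spleen over lung to 0.839 for the 3 genes (0.453 to 1.45), still not separated from 1.

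The mix of the 3 genes was alike between the libraries that had tags. Fga gave 42.4% of the fibrinogen tags in liver (interval 39.1 to 45.8), 42.5% in kidney (33.2 to 52.1), 42.9% in lung (32.9 to 53.3) and 46.7% in spleen (21.3 to 73.4). Fgg gave the smallest share in each of these 4 libraries, with 19.2% in liver, 22.1% in kidney, 17.3% in lung and 13.3% in spleen. The shares differed between the libraries by less than counting error. Transcript lengths were not used, so the shares do not rank the genes by message.

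Ratios of this kind were common in the liver library. Of the 2 kb strand-specific windows with at least 20 liver tags, 41.6% had a liver level at least 5 times that of the second highest library (190 of 457 windows). Fibrinogen ends fell in 13 windows, of which 5 had at least 20 liver tags, and these 5 had ratios of 11.6 to 22.8. Because windows entered through their liver tags, which favours a high ratio, these values describe the windows and add no support to the levels above.

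Genes of liver and of the clotting pathway were compared where tags at their starts located them. Of 19 genes of coagulation and fibrinolysis on the list, only Serpinf2, which encodes the plasmin inhibitor α2-antiplasmin, could be located by a tag in the 50 nt after its start, and the other 18 were not analysed here. Serpinf2 had 7 liver tags (88.7 CPM) and 2 kidney tags (12.3 CPM) and none in the other 4 libraries. Of 9 further liver genes, Alb and Fabp1, which encodes the fatty acid binding protein of liver, were located. Alb had 9136 liver tags (115716 CPM), 746 kidney tags (4597 CPM), 890 lung tags (1805 CPM), 290 spleen tags (6754 CPM), 4 brain tags and 12 ovary tags. Fabp1 had 112 liver tags (1419 CPM), 12 kidney tags (74.0 CPM), 18 lung tags (36.5 CPM) and none in spleen, brain or ovary.

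Liver exceeded kidney 25.2-fold for Alb (interval 23.4 to 27.2), 19.2-fold for Fabp1 (10.6 to 38.2) and 7.19-fold for Serpinf2 (1.37 to 71.0), beside 15.6-fold for the 3 fibrinogen genes together (12.8 to 19.1). Liver exceeded lung 64.1-fold for Alb (59.8 to 68.8) and 38.9-fold for Fabp1 (23.5 to 68.0), beside 54.6-fold for fibrinogen (44.2 to 67.9). Spleen was the second library for Alb, with a liver to spleen ratio of 17.1 (15.2 to 19.3), beside 31.0 for fibrinogen (18.7 to 55.7). Per 100 Alb tags, the 3 fibrinogen genes gave 9.37 tags in liver (interval 8.73 to 10.1), 15.1 in kidney (12.3 to 18.5), 11 in lung (8.84 to 13.6) and 5.17 in spleen (2.86 to 8.67). The kidney interval lay above that of liver, the spleen interval below it, and the lung interval overlapped it. Albumin and fibrinogen tags were thus found together outside liver, as Kap tags were outside kidney, and their part in the fibrinogen levels of kidney, lung and spleen was not tested.

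Within each gene the ends were not spread evenly along the genome but rose towards the 3′ side. Exons were not assigned, so empty stretches between ends were not told apart from introns. Ends were joined into clusters wherever neighbours lay at most 80 nt apart, and the cluster with most tags over all libraries was called the main cluster. In Fga it spanned 1407 nt (82834767 to 82836173) and held 333 of the 363 liver tags (91.7%, interval 88.4 to 94.4). In Fgb it spanned 365 nt (82846187 to 82846551) and held 286 of the 329 liver tags (86.9%, interval 82.8 to 90.4). In Fgg it was the last cluster of the gene, spanned 201 nt (82818758 to 82818958) and held 62 of the 164 liver tags (37.8%, interval 30.4 to 45.7). Of these 62 tags, 24 lay in the last 100 nt, so the rise in Fgg did not reach the last end. The cluster before the main one, 82818065 to 82818623, held a further 49. These shares depend on the gap: at 40 nt the Fga main cluster held 51.2% of the liver tags, and at 160 nt the Fgg main cluster held 67.7%.

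**Figure D2:**
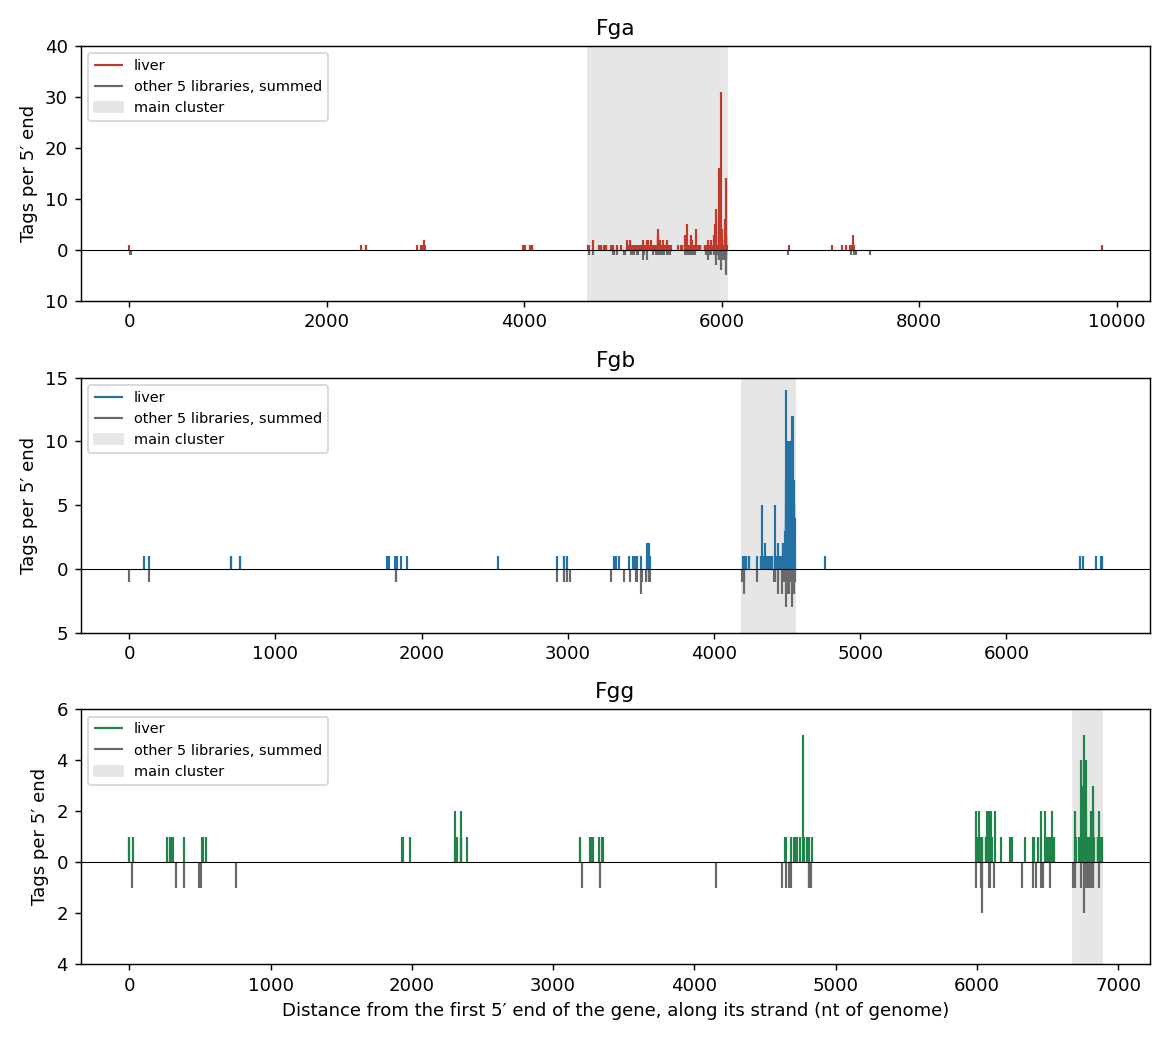
Tags per 5′ end along each gene, upward for liver and downward for the other 5 libraries summed, against the distance in nt of genome from the first end of the gene; grey marks the main cluster. Single tags dot the 5′ part of each gene, and the tallest bars, 31 liver tags for Fga and 14 for Fgb, stand at the 3′ side of the main cluster. For Fgg, a bar of 5 liver tags, equal to its highest, stands upstream of the main cluster.

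The 5′ part of the genes carried few tags. In Fga, 4 clusters upstream of the main one held 1, 3, 6 and 7 liver tags. In Fgb, 7 upstream clusters held 36 liver tags in all, of which 19 lay in the nearest one (82847176 to 82847448), and the density there was 6.96 liver tags per 100 nt, against 78.4 in the main cluster. Fgg had the flattest profile, with 10 upstream clusters of 0 to 49 liver tags. Of these, 8 had liver tags, at 4.84 to 12.5 per 100 nt, against 30.8 in the main cluster. No tag matched the 50 nt after the start of any of the 3 genes over at least 14 bases.

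A few tags lay beyond the main clusters. Downstream of the Fga main cluster, the cluster from 82837341 to 82837481 held 10 liver tags, 1 kidney tag and 2 lung tags. Fga is known for an alternative longer transcript that adds a 3′ exon and encodes the extended αE chain, and whether these tags belong to it was not tested. A single liver tag at 82839972 lay 1 nt before a hexamer AATAAA. Downstream of the Fgb main cluster, 6 liver tags in 2 clusters (82844089 to 82844240) lay about 2 kb further along the gene strand. Of these, 4 lay within 50 nt before an AATAAA at 82844088.

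The last 100 nt of the main cluster held 75.4% of the liver tags of Fgb (248 of 329, interval 70.4 to 79.9). The same stretch held 37.7% for Fga (137 of 363, interval 32.7 to 42.9) and 14.6% for Fgg (24 of 164, interval 9.61 to 21). The 3 intervals over tags do not overlap. Over distinct ends, Fgb stood apart with 49.3% (40.6 to 58.0), while Fga had 17.7% (12.7 to 23.7) and Fgg 14.4% (8.76 to 21.8), intervals that overlap. For Fgb, 67 distinct positions of those 100 were used in liver, while Fga used 36 and Fgg 18.

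**Figure D3:**
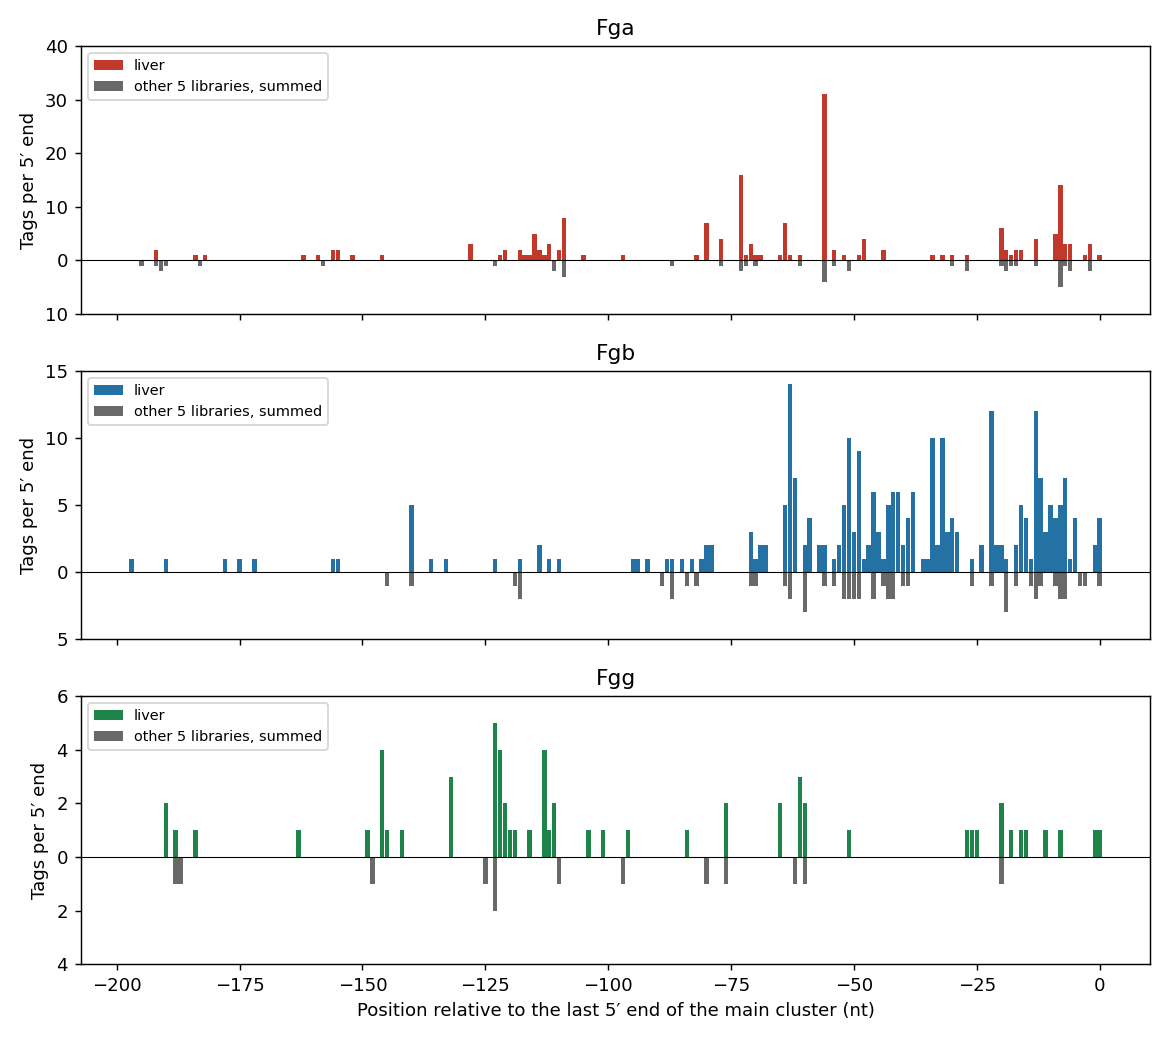
Tags per 5′ end over the last 200 nt of each main cluster, by distance in nt from its last end, upward for liver and downward for the other 5 libraries summed. Fga shows separate peaks of 31, 16 and 14 liver tags, whereas Fgb shows tags at 67 of the last 100 positions, none above 14.

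The strongest single end of the cluster was Fga 82836117, with 31 liver tags, 3 kidney tags and 1 spleen tag. It held 8.54% of the liver tags of Fga (interval 5.88 to 11.9), and neither neighbouring position had a liver tag. Fga 82836100 had 16 liver tags and 2 lung tags. Fga 82836165 had 14 liver tags, 1 kidney tag, 2 lung tags and 2 spleen tags, and it was the only fibrinogen end seen in 4 libraries. Fga 82836064 had 8 liver tags and 3 kidney tags, and Fga 82836093 had 7 liver tags, with 1 other position tying with it. Kidney thus had 3 tags each at 82836117 and 82836064, the most it had at any fibrinogen end.

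Fgb had no such isolated peak. Its strongest end, 82846250, had 14 liver tags, 1 kidney tag and 1 lung tag, or 4.26% of the liver tags of the gene (interval 2.35 to 7.04). That interval overlaps the one of the strongest Fga end. With the adjoining positions the Fgb end held 26 tags, or 7.90%, beside 8.54% for the Fga end counted in the same way. The ends 82846209 and 82846200 had 12 liver tags each, and 82846238 and 82846221 had 10 each, 1 other position tying with these last 2. The lung end 82846247 of Fgb had 3 lung tags and 2 liver tags, and 1 other Fgb end tied with it in lung. In Fgg no end passed 5 liver tags: 82816841 and 82818835 had 5 each, and 82818812, 82818836 and 82818845 had 4 each. Of these, 82816841 lay 2117 nt before the last Fgg end, upstream of the main cluster.

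Most ends were seen once. Of 203 liver ends of Fga, 148 had a single tag (72.9%), as had 81 of 136 for Fgb (59.6%) and 100 of 125 for Fgg (80%). The 5 strongest ends held 20.9% of the liver tags of Fga, 17.6% of those of Fgb and 13.4% of those of Fgg. Liver tags per distinct end were 1.79, 2.42 and 1.31. In the 2 kb windows that held the main 3′ edge, the strongest end took 16.4% for Fga, 4.53% for Fgb and 4.5% for Fgg. Over the 76 liver windows with at least 100 tags, that share had a median of 11.9% (quartiles 7.03 and 30.2), so this Fga window was within the middle range and those of Fgb and Fgg were below it. The Fga window before it, with 163 liver tags, was also below it at 3.07%.

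The hexamer AATAAA, the usual poly(A) signal, and its variant ATTAAA, which do not overlap each other here, were searched in the bases that tags covered, 1647 nt for Fga, 1029 nt for Fgb and 1365 nt for Fgg. On the gene strand, the Fga main cluster held AATAAA at 82836149 and 82836164, and its last end lay 24 and 9 nt past their first bases. The strongest Fga end lay 32 nt before the first of them, and the end at 82836165 began 1 nt inside the second. The Fgg main cluster held AATAAA at 82818951, and the last end lay 7 nt past its first base. Fgg had a further AATAAA at 82818611 and ATTAAA at 82818420 and 82818518, all in the neighbouring cluster, and the 62 liver tags of the main cluster began past them. The Fgb main cluster held neither hexamer in the bases covered. On the opposite strand, TTTATT was found at 2 places in Fgg and at none in Fga or Fgb. Tags that contain AATAAA in their first 20 nt made up 7.44% for Fga (interval 4.96 to 10.6), 0.912% for Fgb (0.188 to 2.64) and 6.71% for Fgg (3.40 to 11.7), beside 9.69% of all liver tags. For TTTATT the shares were 0.467% over the 3 genes and 0.383% of all liver tags.

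The first base of the tags was most often T. Over the 3 genes in liver, T began 47.2% of the tags (interval 43.8 to 50.6), A 28.3% (25.3 to 31.4), C 16.0% (13.6 to 18.6) and G 8.53% (6.74 to 10.6). Over all liver tags the shares were 44.8% for T, 27.2% for A, 17.5% for C and 10.5% for G, each inside the fibrinogen interval. Fga had 52.1% T (interval 46.8 to 57.3) and 5.23% G (3.18 to 8.05), above and below the liver shares. With each distinct end counted once, T began 39.9% of the Fga ends (33.1 to 47.0), against 42.5% of all liver ends. G then began 7.88% of the Fga ends (4.57 to 12.5), against 8.86% of all liver ends. The higher share of T and the lower share of G in Fga were thus seen over tags and not over distinct ends. Within the main clusters the ends fell about evenly into the 3 positions of a triplet count, with shares of 29.0 to 37.5% of distinct liver ends in Fga, 30.5 to 35.8% in Fgb and 31.6 to 36.8% in Fgg. Over tags the shares were 29.1 to 37.2% in Fga, 31.1 to 37.4% in Fgb and 27.4 to 40.3% in Fgg. The reading frame, introns and untranslated regions were not assigned, so these shares cannot show whether ends follow codons.

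Some ends in other libraries coincided with liver ends. Of the fibrinogen ends of kidney, 42 of 105 were also liver ends (40%, interval 30.56 to 50.02). The counts were 44 of 84 in lung (52.4%, 41.2 to 63.4) and 11 of 13 in spleen (84.6%, 54.6 to 98.1). The shared ends are 9.05%, 9.48% and 2.37% of the 464 liver ends. The lung interval overlaps those of kidney and spleen, and the spleen interval lies above that of kidney. The share over all ends of each library was not computed, so these values are not shown to be particular to fibrinogen. Of the 13 spleen ends, 10 lay in the last 100 nt of the main clusters, where liver used 67 positions in Fgb. Whether ends coincide more than such density gives was not tested. Among the 34 liver ends with at least 5 tags, 11 also had a kidney tag, 14 a lung tag and 5 a spleen tag. Fgg, which had the fewest liver tags, had the lowest shares: 3 of 25 kidney ends and 5 of 16 lung ends were liver ends. In Fgb, 20 of 37 kidney ends and 22 of 32 lung ends were.

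Kidney differed from liver in where the tags lay. The main clusters, and so their last 100 nt, were picked by tags over all libraries. Liver gave 856 of these 1083 tags, which favours a high liver share, so the shares are descriptions only. In Fgb, the main cluster held 86.9% of the liver tags (interval 82.8 to 90.4), against 52.5% of the kidney tags (21 of 40, interval 36.1 to 68.5), and lung had 89.7% (35 of 39, 75.8 to 97.1). By distinct ends the Fgb main cluster held 69.9% in liver (61.4 to 77.4), against 51.4% in kidney (34.4 to 68.1), intervals that overlap. Another 12 of the 40 kidney tags of Fgb lay in the cluster just upstream, which held 19 liver tags and 2 lung tags. In the last 100 nt of the main clusters of the 3 genes together lay 47.8% of the liver tags (interval 44.4 to 51.2), 23.9% of the kidney tags (27 of 113, 16.4 to 32.8), 50% of the lung tags (49 of 98, 39.7 to 60.3) and 80% of the spleen tags (12 of 15, 51.9 to 95.7). The kidney interval lay below those of liver, lung and spleen, and the spleen interval lay above that of liver. Per gene, the liver share of the last 100 nt was 37.7% for Fga, against 20.8% in kidney. It was 75.4% for Fgb, against 37.5% in kidney, and 14.6% for Fgg, against 8.0% in kidney. The liver and kidney intervals overlap for Fga and Fgg and not for Fgb. With each distinct end counted once, they overlap for Fgb too, at 49.3% of the liver ends (67 of 136, interval 40.6 to 58.0), against 35.1% of the kidney ends (13 of 37, 20.2 to 52.5). For the 3 genes the stretch then held 26.1% of the liver ends (22.1 to 30.3), 21.9% of the kidney ends (14.4 to 31.0), 46.4% of the lung ends (35.5 to 57.6) and 76.9% of the spleen ends (46.2 to 95). The gap between liver and kidney was thus seen over tags and was within counting error over distinct ends. Distinct ends cannot decide it, since a position counts once however many tags it has. In the last 100 nt of Fgb, 248 liver tags used 67 ends, while 15 kidney tags used 13. Over distinct ends the lung interval also lay above that of liver, though the 2 overlap over tags.

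Over tags, Alb also had its lowest share in kidney and its highest in spleen. The last 100 nt of its main cluster held 61.7% of the liver tags (interval 60.7 to 62.7), 23.7% of the kidney tags (20.7 to 26.9), 50.3% of the lung tags (47.0 to 53.7) and 82.4% of the spleen tags (77.5 to 86.6). For Fabp1 the shares were 58.9% in liver (49.2 to 68.1), 33.3% in kidney (9.92 to 65.1) and 38.9% in lung (17.3 to 64.3). Kap gave no such gap between kidney and lung, with 13.6% in kidney (12.9 to 14.3) and 14% in lung (12.6 to 15.4). In that stretch Kap had 0 of 25 liver tags (0 to 13.7%) and 6 of 31 spleen tags (19.4%, 7.45 to 37.5). Its whole main cluster held 8% of the liver tags (0.984 to 26.0), against 36.8% in kidney (35.7 to 37.8). For Kap the kidney share of the main cluster was thus above that of liver. Each main cluster was picked by tags over all libraries, which favours a high share in the library with most tags. That library was kidney for Kap (3217 tags in the main cluster, against 2 in liver) and liver for Alb (6413, against 228 in kidney). These contrasts thus describe the tags and add no independent support. A low kidney share was thus also seen for Alb, and what moved with it beyond these genes was not tested.

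**Figure D4:**
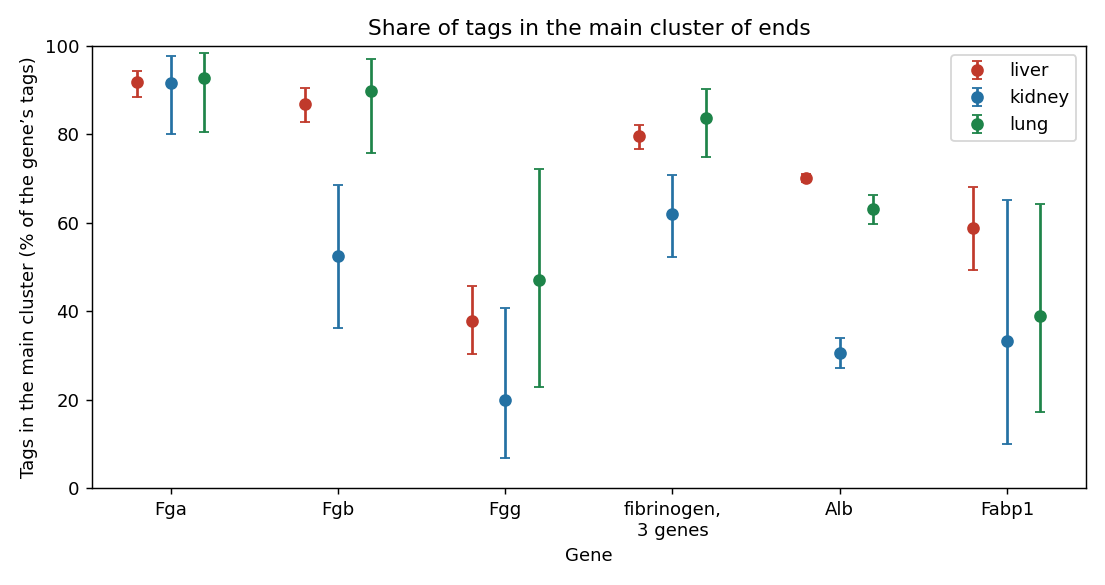
Share of each gene's tags that fell in its main cluster of ends, in percent with exact Clopper-Pearson 95% intervals, for liver, kidney and lung. For Fgb the liver share is 86.9%, against 52.5% in kidney, and Alb has 70.2% in liver, against 30.6% in kidney, while Fga has 91.7% in both.

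The bases before the starts of the 3 genes are given from RefSeq (GRCm38.p6), and whether they bear on the levels was not tested. All 3 genes were matched in the promoter table by symbol. Capitals mark 6-base motifs. CTGGGA (reverse complement TCCCAG) is the core described in rat fibrinogen genes for the response to interleukin-6, and GTTAAT (reverse complement ATTAAC) is the core of the binding site of hepatocyte nuclear factor 1. Both were searched on both strands in the 250 bases before the start, and they do not overlap here. The 130 bases nearest the start are printed.
Fga chr3:83026023-83026152 plus strand: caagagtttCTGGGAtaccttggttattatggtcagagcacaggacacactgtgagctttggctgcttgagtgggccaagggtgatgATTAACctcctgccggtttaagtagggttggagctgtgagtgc
Fgb chr3:83049864-83049993 minus strand: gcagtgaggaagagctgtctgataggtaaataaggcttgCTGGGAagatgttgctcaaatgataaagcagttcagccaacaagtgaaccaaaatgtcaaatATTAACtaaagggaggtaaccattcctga
Fgg chr3:83007594-83007723 plus strand: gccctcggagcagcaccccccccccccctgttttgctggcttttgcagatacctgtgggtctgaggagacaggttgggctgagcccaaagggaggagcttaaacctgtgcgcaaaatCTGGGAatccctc

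CTGGGA was present in all 3 promoters, beginning 121 bases before the start in Fga, 91 in Fgb and 13 in Fgg, and was held by 26.8% of the 27025 mouse promoters of the same length. GTTAAT was present as its reverse complement 43 bases before the start of Fga and 29 before that of Fgb, and was held by 6.52% of all promoters. It was not found before the start of Fgg. The letters TATAAA (reverse complement TTTATA) were in none of the 3 windows and in 13% of all promoters. These matches are descriptions of sequence, and binding was not measured.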

How the data were processed

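The authors deposited 1 table per tissue of tags aligned with Bowtie to mm9, per the submitters' processing notes; version and settings were not stated. Reverse transcription was primed at the poly(A) tail and MmeI cut the amplified products, per the labels' protocols, so each tag needs RNA continuous to the tail. Each line holds a read sequence with its raw tag count, per the authors' description. The deposited score column, a browser density (70 per read, 999 from 13 reads in every line), was not used. Minus-strand sequences are written in reference orientation and were reverse complemented. Sequences then listed at more than 1 location (9 fibrinogen tags) were left out.

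Counts were scaled to 1000000 unique tags. Intervals are exact (Poisson for levels, Clopper-Pearson for shares, conditional binomial for ratios) at 95%, with scipy 1.17.1 and numpy 2.4.6. Blocks split at gaps over 3000 nt and clusters at gaps over 80 nt, the latter set after seeing the ends. Other genes were located by tags that matched the 50 nt after a RefSeq start over at least 14 bases with at most 1 mismatch, and the block downstream on that strand was counted. Protein matching had been planned for this and for coding positions and lengths, but no protein table was used. Alb, Fabp1, Serpinf2, Kap and Gpx3 were located; the other listed genes, all lung, spleen, brain and ovary markers among them, were not analysed here.

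Named ends are the 5 with most liver tags per gene, ties broken from the 5′ side, and the strongest end of another library with at least 3 tags, the most 5′ where tied. Members and lists were chosen with earlier results of these data known. The window count was tested on simulated data. Alternatives tried were other gaps, distinct ends, tag lengths, scaling and leaving out the strongest ends.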

Additional observations from a re-analysis of the deposited data

How the results depend on the processing

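No paired analysis was possible because each tissue has 1 library and no result comes from a test. For the same reason no replicate could be left out. The ratio of liver to the second library stayed above counting error in all 30 alternatives, at 11.2 to 28.2 for Fga, 8.71 to 29.8 for Fgb and 11.8 to 44.6 for Fgg; the low values count each distinct end once, and the high ones leave out the kidney library, after which spleen was second, and were chosen after seeing the data. With a trimmed mean of M values the levels were 6154, 5577 and 2780 CPM in liver for Fga, Fgb and Fgg, and 150.4, 139.6 and 60.9 CPM in lung. The same scaling took kidney over spleen to 2.63, 2.56 and 4.80, now above counting error, and turned spleen over lung to 0.914, 0.844 and 0.645 for Fga, Fgb and Fgg and to 0.839 for the 3 together, within counting error on both scalings; the other 101 alternatives for ratios among kidney, lung and spleen, chosen after seeing the data, kept their direction and side. Without the 10 strongest ends of the library in its total, liver Fga was 5128 and Fgb 4648 CPM. Counting distinct ends, liver Fgb was 2978 and Fgg 2738 per 1000000 ends; kidney values were 397.4, 342 and 231.1 and lung values 132.9, 118.1 and 59.0 for Fga, Fgb and Fgg. Alternatives for the main cluster were also chosen after seeing the data. The Fga share depends on the gap: at 40 nt it held 51.2% of the liver tags, since the cluster divides. At 160 nt the Fgg cluster held 67.7%, since the neighbouring cluster joins it. By distinct ends the shares were 86.7% for Fga and 69.9% for Fgb. The strongest Fgb end held 7.90% within 1 nt. By distinct ends T began 39.7% and C 21.6% of the fibrinogen ends. Within 1 nt, 52.4% of kidney ends and 73.8% of lung ends were liver ends. Of the levels, 92 alternative values stayed within the counting interval and 16 did not, all given above; the cause was not tested. Levels per coding length, coding positions and shares over coding tags were not run, since no protein table was used. Depth limits the ovary, brain and spleen values most.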
